A study of Mus musculus with 2 samples.

Results

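Cell division in the crypt was followed through 43 genes of the mitotic spindle and of G2/M, the stretch of the cell cycle from the end of DNA replication to the separation of the daughter cells. All 43 were found by symbol among the 31055 genes counted. They were chosen by function and sorted into 8 roles, from the cyclins and mitotic kinases to the proteins that package chromosomes. Levels are unique transcript counts (UMIs) of a gene per 10000 UMIs of the cells summed.

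Single epithelial cells were profiled from crypts of the mouse small intestine. According to the labels they came from 1 mouse of genotype ChgaCreER-tdTomato::Rosa26LSL-eYFP, in which tamoxifen activates Cre in cells expressing Chga, the enteroendocrine granule protein chromogranin A, and so switches on eYFP in them and in their descendants. It received 5 daily injections of 1 mg tamoxifen, and every cell analysed shares this genotype and treatment. Sorted eYFP+ cells and bulk epithelial cells were stained with hashtag antibodies and pooled into 1 gene expression library, and the sources used here do not say which hashtag marked which sort.

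The authors kept 2335 cells with 1002 to 129719 UMIs each (median 19078). Cell groups were set by marker UMIs. Cells with 0, 1 to 2 and 3 or more UMIs of Lgr5, the receptor that marks crypt base stem cells, numbered 1418, 420 and 497. Endocrine progenitors, with at least 3 UMIs of the transcription factor Neurog3, numbered 47, and cells with at least 20 Chga UMIs numbered 366. There were 129 goblet cells, whose Agr2, Fcgbp and Muc2 made up at least 0.5% of UMIs, and 134 enterocytes with at least 2 UMIs of Alpi, the intestinal alkaline phosphatase. The Lgr5 bins hold the lineage cells too, so the 1568 cells outside the 4 lineages and outside the leukocytes, called the remaining crypt cells here, were also binned (759, 352 and 457 cells). With 1 library and no replicate there is no test, and the 95% intervals below (Poisson for summed UMIs, Clopper-Pearson for shares) cover counting error only.

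Marker lists were summed in each group, but each list includes genes that set the group, so high values there were partly fixed in advance. Summed stem cell markers were at 106 per 10000 in Lgr5 3+ cells against 3.63 in enterocytes. Enteroendocrine markers were at 654 in Chga cells, goblet markers at 647 in goblet cells and enterocyte markers at 93.1 in enterocytes. Paneth cell markers were at 166 in Lgr5 3+ cells, 170 in the remaining crypt cells and 118 in goblet cells. Paneth cells were not set apart from these groups. Neurog3 cells held endocrine progenitor markers at 23.0 per 10000, enteroendocrine markers at 219 and goblet markers at 88.1. Groups overlap: 20 of the 47 Neurog3 cells were also Chga cells and 15 cells were both Chga and goblet. Depth differed as well, with median UMIs of 24495 in Lgr5 3+ cells, 13729 in Neurog3, 12141 in Chga, 21042 in goblet cells and 28427 in enterocytes. Although the labels name 1 mouse, 1744 cells carried Xist RNA without Y-linked RNA and 252 carried Y-linked RNA, so the cells go against a single animal, and results are also given within these 2 sets. Splits by hashtag pair are given the same way. The splits are not independent: of the 142 remaining crypt cells with Y-linked RNA, 141 were of hashtags 1 and 2. The pairs also differed in make-up. Hashtags 1 and 2 held 303 Chga cells and 12 leukocytes, and hashtags 3 and 4 held 9 and 120.

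Entry into mitosis is driven by cyclin-dependent kinase 1 bound to cyclins A and B. Polo-like and Aurora kinases build the spindle, kinesins and kinetochores move chromosomes along it, and the spindle checkpoint holds back the anaphase-promoting complex until every chromosome is attached. Most of these genes are transcribed in a late wave, held down in resting and G1 cells by the DREAM complex at a promoter element called CHR, and raised in G2 by B-MYB and FOXM1 with NF-Y bound at CCAAT boxes. In the intestinal crypt, stem cells and transit-amplifying cells divide, and cells leave the cycle as they differentiate.

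The promoters of the 43 genes were searched for both elements: TTTGAA for the CHR and CCAAT, each on either strand. The windows were RefSeq promoters of build GRCm38.p6, 300 bases from 250 before to 50 after a gene's start, and 39 of the 43 genes matched (not Ccna2, Aurkb, Kif20a or Tpx2). TTTGAA was present in the windows of 28 of the 39 genes, or 71.8%, against 18.1% of 27025 genes. CCAAT was present in 29, or 74.4%, against 37.9%, and 25 of the 39 held both (64.1% against 7.12%). A match is a run of letters and not evidence of binding. Among the 30 DNA replication and G1/S genes, 24 had a window; 12.5% of these held TTTGAA and 66.7% held CCAAT. To show how the elements lie, 5 genes of 4 roles that hold both near the start are given as the last 100 bases before it, 5′ to 3′ on the gene's strand, with both motifs in capitals (TTCAAA and ATTGG are their reverse complements). They cover chr10:69352913-69353012 (minus strand) for Cdk1, chr4:118437344-118437443 (minus) for Cdc20, chr2:164769829-164769928 (plus) for Ube2c, chr19:37376282-37376381 (plus) for Kif11 and chr11:99024190-99024289 (minus) for Top2a.
Cdk1: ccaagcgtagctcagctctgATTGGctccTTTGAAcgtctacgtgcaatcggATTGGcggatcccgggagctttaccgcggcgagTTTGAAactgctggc
Cdc20: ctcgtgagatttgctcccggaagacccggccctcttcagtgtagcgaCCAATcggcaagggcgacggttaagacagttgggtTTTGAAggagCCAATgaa
Ube2c: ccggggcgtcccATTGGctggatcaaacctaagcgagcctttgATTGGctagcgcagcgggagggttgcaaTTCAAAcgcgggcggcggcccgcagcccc
Kif11: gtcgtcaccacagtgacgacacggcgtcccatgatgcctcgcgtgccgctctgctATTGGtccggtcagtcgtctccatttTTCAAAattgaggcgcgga
Top2a: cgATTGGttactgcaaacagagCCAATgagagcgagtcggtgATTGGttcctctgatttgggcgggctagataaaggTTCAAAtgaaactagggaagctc

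In these 5 stretches the CHR letters nearest the start begin 15 to 29 bases before it, with a CCAAT box 26 to 35 bases upstream, counted from first base to first base. Over the 9 genes with both elements in these 100 bases the spacing ran from 10 (Ckap2l) to 43 (Hmgb2). Of the matched genes, 7 held neither run of letters in the window: Mad2l1, Birc5, Nuf2, Knstrn, Pttg1, Nusap1 and Tacc3. Over all windows of the 43 genes, 1 pair of CHR and CCAAT matches overlapped.

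Summed over the 43 genes, the level was 35.2 per 10000 in cells without Lgr5 UMIs (interval 35 to 35.5), 39.0 with 1 to 2 (38.6 to 39.4) and 36.5 with 3 or more (36.2 to 36.8). Neurog3 cells held 24.5 (23.6 to 25.4), Chga cells 21.4 (21 to 21.7), goblet cells 28.1 (27.5 to 28.7) and enterocytes 14.2 (13.8 to 14.5). All 4 lineages thus lay below every Lgr5 bin, with ratios to Lgr5 3+ cells of 0.670, 0.585, 0.770 and 0.388. Once lineage cells and leukocytes were set aside the Lgr5 bins separated in the other direction: 48.6 per 10000 at Lgr5 0, 40.4 at 1 to 2 and 36.4 at 3 or more. The genes' level was therefore highest in the remaining crypt cells without detected Lgr5. Tuft cells, a comparison group of 34 cells, held 18.7 and the 139 leukocytes held 19.1. Cells of a group were unequal, and the median cell held 8.35 per 10000 in Lgr5 3+ cells, 24.8 in remaining crypt cells at Lgr5 0 and 4.001 in Chga cells, all below the group sums.

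**Figure D1:**
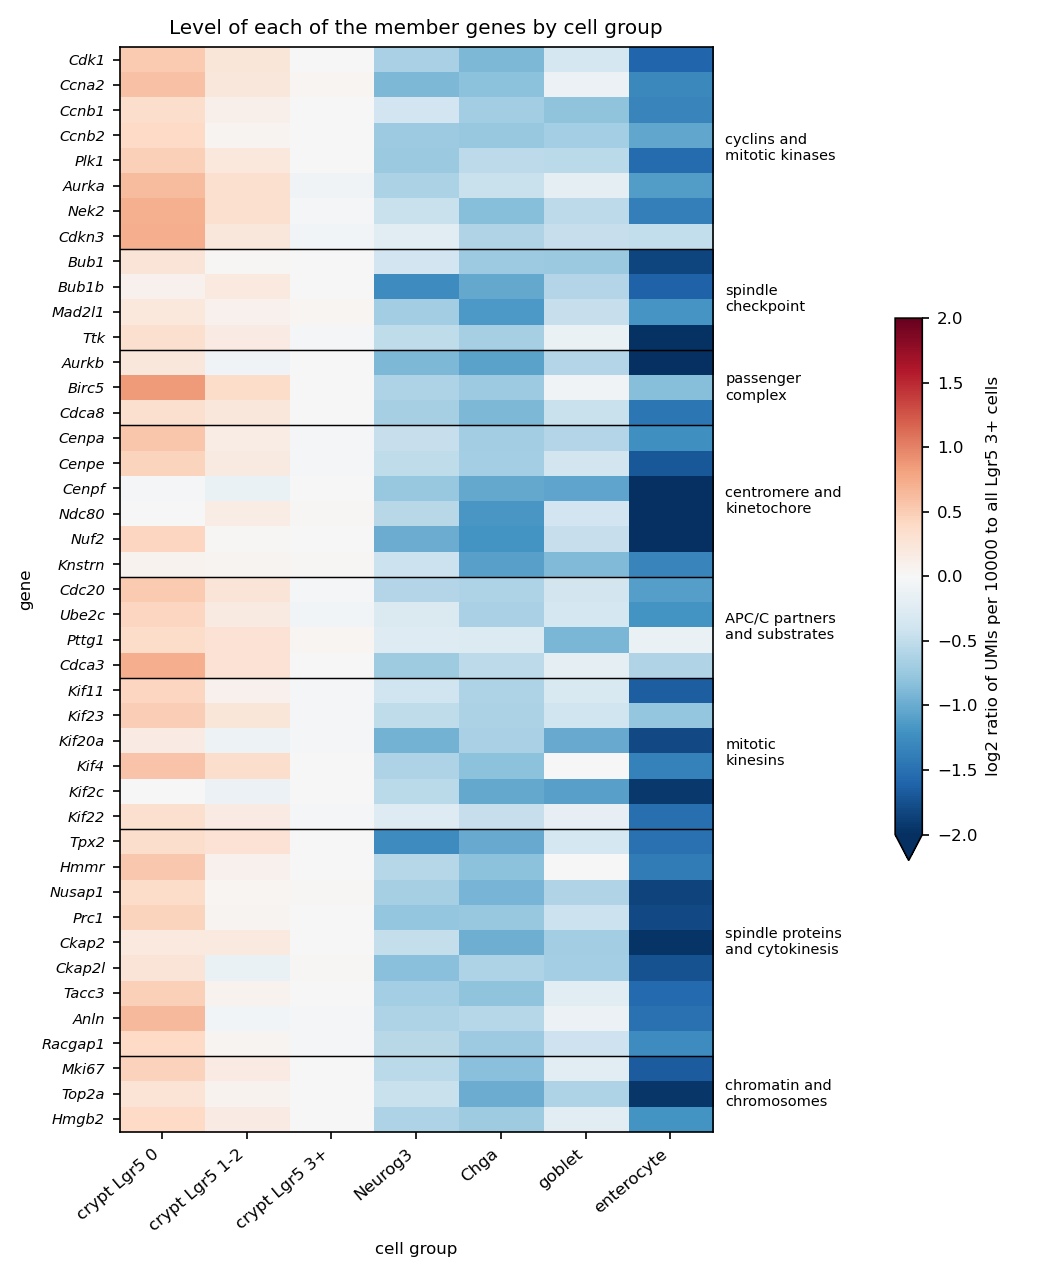
Colour gives the log2 ratio of each gene's UMIs per 10000 in a cell group (columns) to its level in all Lgr5 3+ cells, for all 43 genes (rows) ordered by role; the scale stops at a log2 ratio of 2 in size, and lower values take the darkest blue. The enterocyte column is the darkest, with 38 of 43 genes at least 2-fold lower, and the column of remaining crypt cells at Lgr5 0 is mostly above the level in Lgr5 3+ cells.

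Gene by gene, none of the 43 was 2-fold higher in Lgr5 3+ than in Lgr5 0 cells, where 3.96% of 13483 genes were, and none was 2-fold lower, where 14.6% were. The folds ran from 0.78 for Birc5 to 1.46 for Kif2c, with a median of 1.04 against 0.94 over all genes. Among remaining crypt cells, 40 of the 43 were lower in the Lgr5 3+ bin than in the Lgr5 0 bin, with a median fold of 0.75 against 0.99 over all genes; none was 2-fold lower, against 6.18% of all genes. The 3 that were not lower were Cenpf, Ndc80 and Kif2c, each at 1.00 to 1.01. The Lgr5 comparison depended on the cells taken: the summed ratio of Lgr5 0 to Lgr5 3+ cells was 0.965 over all cells, 0.725 in cells of hashtags 1 and 2, 1.38 in cells of hashtags 3 and 4, 1.09 in Xist cells and 0.710 in cells with Y-linked RNA. These sets overlap and differ in make-up, as given above. Depth moved with the bins too, since an Lgr5 UMI is found more often in a deep cell. With cells thinned to 10000 UMIs before binning, the sum was 38.0 per 10000 at Lgr5 0, 36.6 at 1 to 2 and 32.2 at 3 or more. Cells with fewer UMIs were left out of these bins, which held 1115, 403 and 222 cells. The cells taken thus changed along with the depth, and their parts were not tested.

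Against Lgr5 3+ cells, 2 of the 43 genes were at least 2-fold lower in Neurog3 cells, where 5.96% of 11653 genes were, and all 43 were below 1 with a median fold of 0.65 against 1.10 over all genes. In Chga cells 9 were 2-fold lower, against 6.1% of 12444 genes, and again all 43 were below 1 (median 0.59 against 1.15). In goblet cells 3 were 2-fold lower, against 9.76% of genes, and 41 were below 1 (median 0.74 against 0.93). In enterocytes 38 were 2-fold lower, against 22.3% of genes, and all 43 were below 1 (median 0.35 against 0.84). The 5 genes short of 2-fold in enterocytes were Pttg1, Cdkn3, Cdca3, Kif23 and Birc5, at folds of 0.91, 0.71, 0.66, 0.58 and 0.55; they are named after their values were seen, as are the called genes below that the naming rule did not pick. The counts in Neurog3 and goblet cells were no higher than the shares over all genes. All 4 comparisons share the Lgr5 3+ cells, and the cells in each lineage that still held these transcripts set most of the sums, as described further on.

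Among the cyclins and mitotic kinases, Cdk1, the kinase that drives entry into mitosis, was at 0.744, 0.808 and 0.733 per 10000 across the Lgr5 bins from 0 to 3+, and at 0.466 in Neurog3, 0.392 in Chga, 0.574 in goblet cells and 0.245 in enterocytes. Ccnb2, a B-type cyclin, was at 0.724, 0.741 and 0.752 across the bins and at 0.457, 0.444, 0.470 and 0.368 in the 4 lineages in the same order. Both were flat over the bins and lower in each lineage. Ccnb1, the other B-type cyclin measured, was at 0.447, 0.486 and 0.480 across the bins and at 0.367, 0.298, 0.276 and 0.192 in the lineages. Plk1, the Polo-like kinase of centrosomes and kinetochores, was at 0.329, 0.379 and 0.331, and at 0.197, 0.229, 0.228 and 0.114. No gene of this role was 2-fold lower in Neurog3, Chga or goblet cells, whereas 7 of 8 were in enterocytes. The exception was Cdkn3, a phosphatase acting on cyclin-dependent kinases, at 0.221 in enterocytes against 0.311 in Lgr5 3+ cells. Among remaining crypt cells all 8 genes were lower at Lgr5 3+ than at Lgr5 0, with a median fold of 0.69.

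The spindle assembly checkpoint genes were lower in every lineage. Bub1b, which encodes the checkpoint protein BubR1, was at 0.264, 0.361 and 0.343 per 10000 across the Lgr5 bins and at 0.143 in Neurog3, 0.169 in Chga, 0.229 in goblet cells and 0.111 in enterocytes. Mad2l1, whose product inhibits Cdc20 until kinetochores are attached, was at 0.277, 0.314 and 0.319, and at 0.197, 0.144, 0.232 and 0.141. Bub1b was 1 of the 2 genes at least 2-fold lower in Neurog3 cells, resting there on few UMIs in 47 cells, and both were 2-fold lower in Chga cells. All 4 checkpoint genes were 2-fold lower in enterocytes.

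In the chromosomal passenger complex, which corrects faulty spindle attachments and then acts in cytokinesis, Birc5 (survivin) was at 1.62, 1.56 and 1.26 per 10000 from Lgr5 0 to 3+, and at 0.825 in Neurog3, 0.759 in Chga, 1.20 in goblet cells and 0.696 in enterocytes. It had the lowest fold of the 43 genes between remaining crypt cells at Lgr5 3+ and at Lgr5 0, 0.56 (0.53 to 0.59). Cdca8 (borealin) was at 0.922, 1.15 and 1.03 across the bins and at 0.645, 0.553, 0.752 and 0.377 in the lineages. Aurkb, the kinase of the complex, was at 0.332, 0.364 and 0.403, and at 0.215, 0.192, 0.270 and 0.0981. Over all cells the members of 1 complex thus ordered the Lgr5 bins differently, with Birc5 highest and Aurkb lowest in the Lgr5 0 bin. This did not hold among remaining crypt cells, where all 3 were lower at Lgr5 3+ than at Lgr5 0 (folds 0.56 to 0.86).

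Of the centromere and kinetochore genes, Cenpf, a large protein that loads onto kinetochores in G2, was at 1.18, 1.496 and 1.71 per 10000 from Lgr5 0 to 3+, and at 1.01 in Neurog3, 0.842 in Chga, 0.825 in goblet cells and 0.348 in enterocytes. Cenpa, the histone H3 variant of centromeres, was at 1.07, 1.07 and 1.01, and at 0.735, 0.625, 0.676 and 0.430. Cenpf therefore differed more between Lgr5 3+ cells and enterocytes (fold 0.20) than Cenpa did (0.43). In Chga cells 4 of the 6 genes of this role were 2-fold lower (Cenpf, Ndc80, Nuf2 and Knstrn), the most of any role. Nuf2, a subunit of the complex that grips microtubules, had the lowest fold of the 43 there, 0.44 (0.31 to 0.60). In enterocytes all 6 were 2-fold lower, and Ndc80, the partner of Nuf2, had the lowest fold of any of the 43 genes in any lineage, 0.14 (0.062 to 0.27), from 9 UMIs there.

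Among partners and substrates of the anaphase-promoting complex, Ube2c, the ubiquitin-conjugating enzyme that works with it, was at 2.60, 2.88 and 2.65 per 10000 across the Lgr5 bins, and at 2.17 in Neurog3, 1.70 in Chga, 2.08 in goblet cells and 1.16 in enterocytes. Cdc20, its activator in early mitosis, was at 0.575, 0.631 and 0.552, and at 0.367, 0.361, 0.428 and 0.256. Cdca3, a trigger of mitotic entry, was at 1.16, 1.15 and 0.959, and at 0.583, 0.665, 0.848 and 0.631. Of the 8 roles this one had the median folds nearest to 1 in Neurog3 cells, Chga cells and enterocytes (0.74, 0.67 and 0.56); none of its 4 genes was 2-fold lower in Neurog3, Chga or goblet cells, and 2 were in enterocytes. Pttg1 (securin), which guards sister chromatid cohesion until anaphase, was at 0.379, 0.389 and 0.342 across the bins and at 0.287, 0.283, 0.181 and 0.312 in the lineages. Its fold was the nearest to 1 of the 43 genes in enterocytes (0.91) and in Chga cells (0.83), and leukocytes held 0.577, above every epithelial group.

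Among the mitotic kinesins, Kif11, the motor that pushes spindle poles apart, was at 0.602, 0.618 and 0.613 per 10000 across the bins, and at 0.466 in Neurog3, 0.401 in Chga, 0.498 in goblet cells and 0.196 in enterocytes. Kif23, a motor of the central spindle, was at 0.483, 0.535 and 0.470, and at 0.332, 0.303, 0.356 and 0.274. Both were level across the bins and lowest in enterocytes. Kif2c, which takes microtubule ends apart, and Kif20a, a motor of cytokinesis, were among the 3 genes 2-fold lower in goblet cells, with Cenpf. Kif4, a chromosome-bound motor, was by contrast at a fold of 1.01 there.

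For the spindle-associated and cytokinesis proteins, Prc1, which bundles microtubules between the separating chromosomes, was at 0.834, 0.854 and 0.860 per 10000 across the Lgr5 bins, and at 0.502 in Neurog3, 0.510 in Chga, 0.638 in goblet cells and 0.245 in enterocytes. Nusap1, a microtubule-binding protein of the spindle, was at 0.698, 0.746 and 0.769, and at 0.484, 0.403, 0.508 and 0.214. Neither differed by more than 1.10-fold between Lgr5 3+ and Lgr5 0 cells. Tpx2, the spindle activator of Aurora A, was the other gene 2-fold lower in Neurog3 cells (fold 0.42) and was also 2-fold lower in Chga cells (0.50). All 9 genes of the role were 2-fold lower in enterocytes, while Hmmr was level with Lgr5 3+ cells in goblet cells (fold 1.00).

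Of the chromatin genes, Mki67, the proliferation antigen that coats mitotic chromosomes, was at 2.65, 2.97 and 2.70 per 10000 across the Lgr5 bins, and at 1.85 in Neurog3, 1.52 in Chga, 2.34 in goblet cells and 0.852 in enterocytes. Top2a, the topoisomerase that untangles sister chromatids, was at 2.47, 2.90 and 2.90, and at 2.14, 1.46, 1.90 and 0.751. Hmgb2, a chromatin protein also present outside mitosis, was at 8.23, 9.17 and 8.39, and at 5.48, 5.10, 7.26 and 3.64. Enterocytes were lowest for all 3 genes, and goblet cells, or Neurog3 cells for Top2a, were nearest to the Lgr5 bins. Hmgb2 alone held 43349 of the 186110 UMIs of the 43 genes, and without it the ratios of Neurog3, Chga, goblet and enterocyte cells to Lgr5 3+ cells were 0.675, 0.578, 0.742 and 0.374.

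The same comparisons were made for other cell cycle genes. Of 60 further G2 and mitosis genes, 15 were at least 2-fold lower in Neurog3, 21 in Chga, 4 in goblet cells and 52 in enterocytes, with median folds of 0.66, 0.54, 0.72 and 0.28. Those with most UMIs were Cks2, a subunit of cyclin-dependent kinase complexes, and the condensin gene Smc4 and the lamin gene Lmnb1, at folds of 0.60, 0.60 and 0.55 in Chga cells. Of 30 DNA replication and G1/S genes, 2 were 2-fold lower in Neurog3, 17 in Chga, 0 in goblet cells and 26 in enterocytes. Against the shares over all genes given above, the 4 of 60 and 0 of 30 in goblet cells were no more than the background. The 2 of 30 in Neurog3 cells lay near the 5.96% of all genes there. In Chga cells the median fold of the 30 DNA replication and G1/S genes, 0.48, lay below the 0.59 of the 43 genes. The 7 genes of cyclin-dependent kinase inhibitors summed to 1.91 per 10000 in Lgr5 3+ cells, 7.47 in Neurog3, 14.5 in Chga, 3.66 in goblet cells and 4.14 in enterocytes. Cdkn1a, which encodes p21, made up most of this in Chga cells, at 10.7 per 10000 against 0.716 in Lgr5 3+ cells.

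The sums mix cells in division with cells outside it, so each cell was scored by its UMIs of the 42 genes other than Hmgb2, after thinning every cell to 5000 UMIs and leaving out shallower ones. A cell with at least 20 per 10000, which is at least 10 UMIs of the 5000, was called G2/M-high. This is a range of a continuous score and not a cell type: 287 of 1368 remaining crypt cells lay between 10 and 40. The 90th percentile of the score was 84 per 10000 in Lgr5 3+ cells, 30 in Chga cells and 19.8 in enterocytes, while medians were 6, 2 and 2, and 1 UMI is worth 2.

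**Figure D2:**
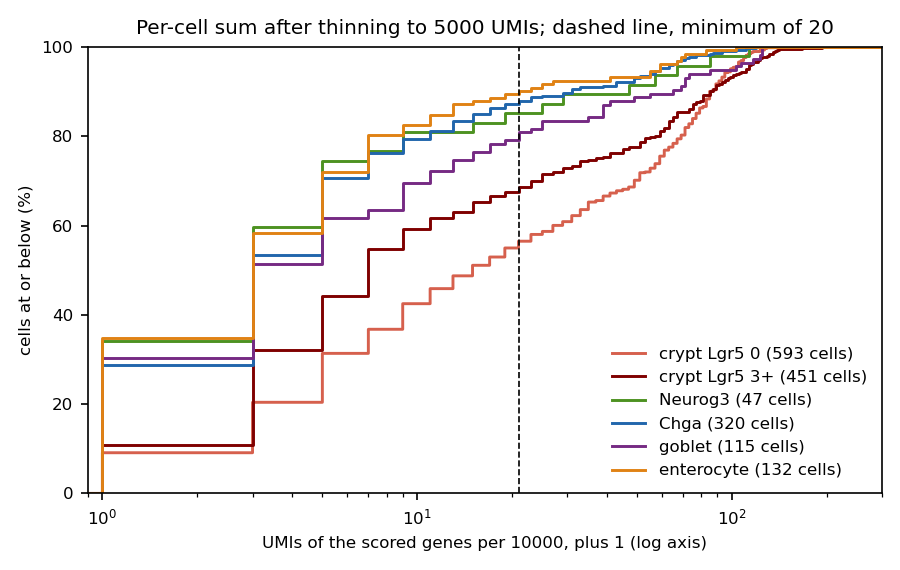
Each line gives the percent of a group's cells (vertical axis) at or below a score (horizontal log axis, UMIs of 42 genes per 10000 after thinning, plus 1), and the dashed line marks the minimum of 20. The lines of the 4 lineages lie above those of the remaining crypt cells at the dashed line, so fewer of their cells exceed it.

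Of Lgr5 3+ cells 33.0% were G2/M-high (162 of 491; 28.9 to 37.4%), of cells with 1 to 2 Lgr5 UMIs 34.96% (30.2 to 39.9%) and of cells with none 29.3% (26.6 to 32.1%). The shares were lower in the lineages, at 20.9% of goblet cells (24 of 115; 13.9 to 29.4%), 14.9% of Neurog3 cells (7 of 47; 6.20 to 28.3%), 12.8% of Chga cells (41 of 320; 9.35 to 17.0%) and 10.6% of enterocytes (14 of 132; 5.92 to 17.1%). The intervals of Chga cells and enterocytes lay well below that of Lgr5 3+ cells, that of Neurog3 cells ended just below it, and that of goblet cells overlapped it. Among remaining crypt cells the share was 45.0% at Lgr5 0 (41.0 to 49.1%), 35.8% at 1 to 2 and 32.6% at 3 or more (28.3 to 37.1%). Without thinning the shares were 32.0% in Lgr5 3+, 21.7% in goblet, 14.9% in Neurog3, 11.5% in Chga cells and 11.9% in enterocytes. In all, 709 of the 2335 cells, or 30.4%, were G2/M-high without thinning, and 86.7% of these were remaining crypt cells.

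**Figure D3:**
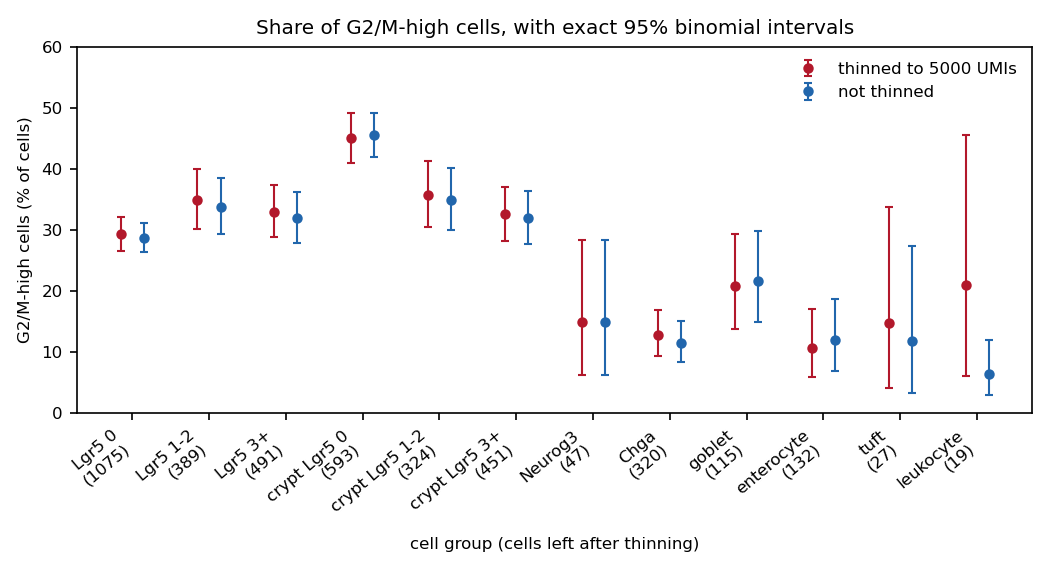
Points give the percent of cells called G2/M-high in each group, thinned (red) and not thinned (blue), with bars for exact 95% binomial intervals, and the number of cells after thinning stands below each group. Remaining crypt cells at Lgr5 0 are highest at 45.0%, and Chga cells and enterocytes are lowest among the 4 lineages at 12.8% and 10.6%.

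A second measure, at least 3 of 14 genes that peak in mitosis itself found with a UMI in the thinned cell, gave 31.8% of Lgr5 3+, 19.1% of goblet, 14.9% of Neurog3, 13.4% of Chga cells and 12.9% of enterocytes. Tuft cells measured as for the score gave 14.8% (4 of 27; 4.19 to 33.7%; group median 14898 UMIs) and leukocytes 21.1% (4 of 19; 6.05 to 45.6%; group median 2785 UMIs), and these intervals span the shares of all 4 lineages. The tuft group is no clean background, since 8 of its 34 cells were also Chga cells and it held 198 enteroendocrine marker UMIs per 10000. Free RNA can have added at most the sum found in a cell set, and only for that set. Over the 31 enterocytes with at least 10 Alpi UMIs, all 43 genes summed to 2.22 per 10000 (1.95 to 2.51). These had a median of 33543 UMIs, and no cell was G2/M-high. Chga cells with at least 200 Chga UMIs per 10000 were shallower (median 7099 UMIs) and held 3.42 (2.94 to 3.94). The part of free RNA in the other cells was not tested.

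For 3 of the 4 markers the share was lower at each higher level. These bins were chosen after the data were seen. Among Chga cells 53.3% were G2/M-high below 20 Chga UMIs per 10000 (8 of 15), 30.0% from 20 to below 50, 14.3% from 50 to below 100, 2.59% from 100 to below 200 (3 of 116; 0.536 to 7.37%) and 0 of 45 at 200 or more, which allows up to 7.87%. Median depth fell along these bins from 37132 to 7099 UMIs, because a minimum of 20 Chga UMIs admits a low Chga level only in deep cells; its part in the trend was not tested. Among goblet cells the share was 37.5% where the 3 goblet genes made up 0.5 to below 1% of UMIs, 28.9% from 1 to below 2%, 13.2% from 2 to below 5% and 0 of 8 above that, which allows up to 36.9%. Depth there was flat, with medians of 20427 to 22987 UMIs. By Alpi UMIs the share was 30.9% at 1 UMI, which is below the minimum for an enterocyte here, 26.1% at 2, 15.4% at 3 to 4, 7.69% at 5 to 9 and 0 of 31 at 10 or more, which allows up to 11.2%, with median depths of 25028 to 34723. Neurog3 showed no such order: the share was 17.1% at 1 to 2 UMIs, 19.0% at 3 to 9 and 11.5% at 10 or more, with wide intervals (2.45 to 30.2% for the last).

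**Figure D4:**
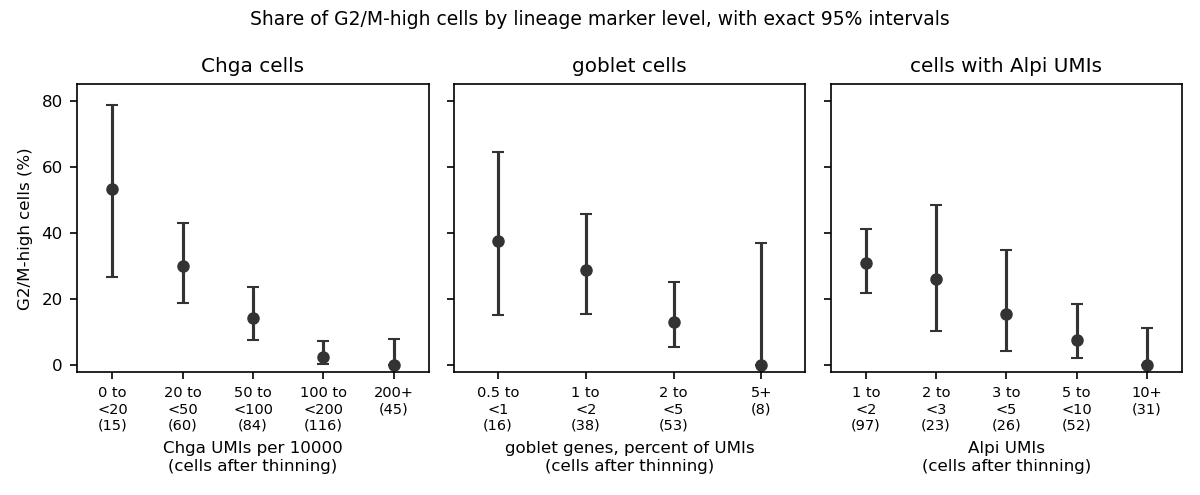
Each panel gives the percent of G2/M-high cells (vertical axis) by level of the lineage marker (horizontal axis), with exact 95% binomial intervals and the number of thinned cells in parentheses. In all 3 panels the share is highest in the lowest bin and 0 in the highest.

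G2/M-high cells of a lineage carried less of its markers and more of the summed stem cell markers. In Chga, Neurog3 and enterocyte cells the first difference was partly fixed in advance. Their marker minimums are numbers of UMIs, which a deeper cell reaches at a lower level per 10000. The second difference was small in goblet cells (16.3 against 14 per 10000) and was 7.68 against 2.82 in enterocytes. The 42 such Chga cells (unthinned; median 33660 UMIs) held 37.1 Chga UMIs per 10000 against 103 in the other Chga cells (median 11389). Their Tph1, the enzyme of serotonin synthesis, was at 6.05 against 19.2, Cdkn1a at 4.64 against 12.6, and the stem cell gene Olfm4 at 33.4 against 14.6. Hmgb2, which the score leaves out, was at 14.5 against 2.15. In Neurog3 cells the 7 G2/M-high cells (median 49070 UMIs against 12996) held Neurog3 at 2.82 against 6.597, Olfm4 at 48.3 against 17.5 and Hmgb2 at 12.6 against 2.67. In goblet cells the 28 (median 30726 against 20621) held Muc2 at 18.9 against 30.8 and Hmgb2 at 17.5 against 3.04, and Olfm4 was about level at 9.02 against 8.56. In enterocytes the 16 (median 48525 against 27326) held Alpi at 0.774 against 2.48, and Hmgb2 at 14.03 against 1.56.

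Depth and, in enterocytes, markers of other lineages moved with these cells, and their part in the shares was tested only by leaving cells out. The G2/M-high enterocytes held 88.3 per 10000 of enteroendocrine markers and 42 of goblet markers, against 20.02 and 8.96 in the other enterocytes. In the other lineages goblet and enteroendocrine markers were lower in the G2/M-high cells. Goblet markers were at 33.8 against 50.3 in Chga cells and 14.6 against 117 in Neurog3 cells, and enteroendocrine markers at 26.0 against 73.6 in goblet cells. Stem cell markers were higher, at 44.7 against 20.5 in Chga cells and 63.0 against 25.5 in Neurog3 cells. Enterocyte markers in Chga cells were level, at 7.78 against 7.71. Depth was higher in the G2/M-high cells of all 4 lineages. Removing those cells whose doublet score lay in the top 6% took the share to 9 of 241 Chga cells (3.73%), 0 of 36 Neurog3 cells (which allows up to 9.74%), 6.504% of enterocytes and 20.2% of goblet cells, against 31.5% of Lgr5 3+ cells. The summed ratio to Lgr5 3+ cells then became 0.247 for Chga, 0.199 for Neurog3, 0.286 for enterocytes and 0.765 for goblet cells. Leaving out cells above 30000 UMIs, an alternative chosen after seeing the data, took the shares to 6.28% of Chga, 5.71% of Neurog3 and 10.4% of goblet cells, 1.41% of enterocytes and 24.7% of Lgr5 3+ cells. Leaving out cells of 2 or more lineages went the other way in 2 groups: the ratio to Lgr5 3+ cells became 0.956 for Neurog3 and 0.864 for goblet cells, with 0.578 for Chga and 0.312 for enterocytes. The shares were then 25% of Neurog3 (6 of 24; 9.77 to 46.7%), 12.4% of Chga (35 of 282), 22.2% of goblet cells and 8.13% of enterocytes. The Neurog3 difference thus depended on which cells were left out, while Chga cells and enterocytes stayed below Lgr5 3+ cells under all 3 alternatives. Most G2/M-high Chga cells were among those with the highest doublet scores or above 30000 UMIs, and few were cells of 2 or more lineages.

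The lineage differences were also set beside the hashtag pairs and the Xist and Y-linked sets. In cells of hashtags 1 and 2 the summed ratio to Lgr5 3+ cells was 0.777 for Neurog3, 0.428 for Chga, 0.840 for goblet cells and 0.266 for enterocytes. Cells of hashtags 3 and 4 held under 20 cells of the first 3, and their 28 enterocytes gave 0.936, with 10 of the 28 G2/M-high (35.7%; 18.6 to 55.9%) against 1 of 29 in hashtags 1 and 2. Of Lgr5 3+ cells of hashtags 3 and 4, 31.7% were G2/M-high (38 of 120). The enterocyte difference thus did not hold within hashtags 3 and 4. In Xist cells the ratios were 0.603, 0.709, 0.730 and 0.379, and in cells with Y-linked RNA the only lineage with 20 cells, Chga, gave 0.373.

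Within each group the balance of the programme was compared as the ratio of 14 late mitotic genes to 8 genes already high in late S and G2. It was 0.603 in Lgr5 0, 0.604 in 1 to 2 and 0.618 in 3+ cells, 0.643 in Neurog3, 0.633 in Chga, 0.525 in goblet cells and 0.630 in enterocytes. The groups were thus close although their sums differed more than 2-fold. In G2/M-high cells alone (unthinned score) the ratio was 0.683 in Lgr5 3+, 0.791 in Neurog3, 0.743 in Chga, 0.622 in goblet cells and 0.722 in enterocytes, against 0.230 to 0.413 in the other cells of the 4 lineages. Goblet cells were lowest of the 5 in both measures. Hmgb2, which is also present outside mitosis, held 43349 of the 83735 UMIs of the 8 earlier genes over all cells. No ratio was made without it, so its part in these ratios was not tested. Since the score uses these genes, the contrast between G2/M-high and other cells is a description.

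Detection per cell differed between the genes. Here G2/M-high cells were taken by the unthinned score, and detection was read in the 5000 UMIs of the thinned cell. In 515 such remaining crypt cells, Mki67 had a UMI in 90.7%, Top2a in 86.0%, Ube2c in 83.9% and Birc5 in 80.6%, whereas Ttk, a checkpoint kinase, had one in 13.0%. Hmgb2, outside the score, had a UMI in 99.8% of these and in 69.2% of the other 853 cells. The level summed over all 615 such cells, relative to the 953 others, was 39.4-fold for Nusap1 and 31.7-fold for Hmmr, the widest of the 43, and 1.43-fold for Pttg1, the narrowest. All of the 43 genes but Hmgb2 make up the score, so higher values in G2/M-high cells were fixed in advance for the set. The detection and folds between these cells are therefore a description. Pttg1 had the smallest such difference of the 43, and its fold in enterocytes was also the nearest to 1.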

How the data were processed

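Single-cell RNA libraries were made with 10x Genomics 3-prime chemistry, per the labels' protocols. Cell Ranger and Seurat are named in the submitters' processing notes, and the matrix header gives version 3.1.0. A human build is named in the labels although the identifiers are those of mouse Ensembl genes, so coordinates come only from RefSeq (GRCm38.p6). The values analysed were raw UMI counts of 2335 cells in the authors' deposited table; how the authors chose these cells is not stated. The deposited hashtag values are raw antibody counts, and a 3-fold excess of 1 tag pair over the other placed a cell in that pair. Left-out barcodes were not used.

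From the counts, UMIs were summed per group (Python 3.11.15, numpy 2.4.6, scipy 1.17.1, pandas 2.3.3, matplotlib 3.10.9). A gene entered a comparison with at least 20 UMIs over both groups and was called at 2-fold. Groups overlap. Cells were thinned once, with a fixed seed. Doublets were not removed in the values given first: Scrublet (scanpy 1.11.5) marked 2 of 2335 cells, 0.0857%, which is too few to have worked, so its scores were used only to rank cells. Genes given in full are the 2 with most UMIs in each role plus Mki67, Top2a, Cdk1, Ccnb1, Cdc20, Plk1, Aurkb and Cenpf. UMIs from 3-prime ends do not compare levels between genes. The members, lists and minimums were chosen with earlier results of these data known. The code was tested on simulated data. No p-value was computed, since 1 library holds all cells.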

Additional observations from a re-analysis of the deposited data

How the results depend on the processing

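The lower summed level in the 4 lineages than in Lgr5 3+ cells kept its direction in every alternative that gave a value. For enterocytes in hashtags 3 and 4 the ratio was 0.936, and the share of G2/M-high cells went the other way. It was 35.7% of enterocytes against 31.7% of Lgr5 3+ cells there. The order of the Lgr5 bins did not keep its direction. The summed ratio of Lgr5 0 to Lgr5 3+ cells, 0.965, turned to 1.18 with bins set after thinning to 10000 UMIs, which leaves out shallower cells. It turned to 1.34 in remaining crypt cells, 1.09 in Xist cells and 1.38 in hashtags 3 and 4. That of Lgr5 1 to 2 cells, 1.07, turned to 0.573 in Y-linked cells, 0.833 in hashtags 1 and 2 and 0.830 without cells above 30000 UMIs. The causes were not tested.

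Genes at least 2-fold lower numbered 9 in Chga, 2 in Neurog3, 3 in goblet and 38 in enterocyte cells. In the order Chga, Neurog3 and goblet cells, and with the percent of all genes called at the same setting in parentheses, they became 37, 23 and 13 (15.1, 12.5, 20.3%) at 1.5-fold, and 0, 0 and 0 (1.92, 2.78, 4.18%) at 3-fold, where enterocytes gave 17 (11.9%). They became 14, 4 and 5 (8.24, 6.79, 12.0%) with the 50 genes of most UMIs out of the denominator, 41, 33 and 7 (13.0, 12.1, 13.5%) as means over cells, and 1, 1 and 1 (5.85, 5.10, 9.54%) with bins after thinning. Stricter markers gave 42, 12 and 15 (19.05, 8.25, 18.6%), and leaving out cells above 30000 UMIs 42, 42 and 43 (13.2, 13.8, 18.1%). Chga gave 36 (7.04%) in hashtags 1 and 2, 38 (8.35%) in Y-linked cells, 1 (5.24%) in Xist cells and 41 (15.2%) without the highest doublet scores. Neurog3 gave 10 (6.58%) in Xist cells, 42 (11.1%) without the highest doublet scores and 0 (8.1%) without cells of 2 or more lineages, where goblet cells also gave 0 (12.0%). Enterocytes gave 0 (15%) in hashtags 3 and 4. The count higher in Lgr5 3+ than in Lgr5 0 cells, 0, became 6 (3.43%) in Y-linked cells, 3 (3.04%) in hashtags 1 and 2 and 4 (4.19%) without cells above 30000 UMIs.

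Shares moved with the minimum and with the cells taken. At 10 per 10000 they were 39.4, 47.6 and 41.3% across the Lgr5 bins, 20.6% in Chga, 30.4% in goblet cells and 17.4% in enterocytes; at 40 they were 21.4, 24.9 and 24.8%, 8.75% in Chga and 13.0% in goblet cells. Stricter markers gave 1.86% of Chga, 11.5% of goblet cells and 4.82% of enterocytes. Bins after thinning gave 34.5% at Lgr5 0 and 24.3% at 3+, and remaining crypt cells 45.0% at Lgr5 0. Hashtags 1 and 2 gave 22.0% at Lgr5 0, 39.2% at 3+, 9.30% of Chga cells and 3.45% of enterocytes. Hashtags 3 and 4 gave 45.7% at Lgr5 0, 48.8% at 1 to 2, 31.7% at 3+ and 35.7% of enterocytes. Y-linked cells gave 25.8% at Lgr5 0, 53.8% at 3+ and 7.69% of Chga cells. Without the highest doublet scores Chga gave 3.73% and Neurog3 0%. Without cells above 30000 UMIs the bins gave 20.5, 24.7 and 24.7%, and Neurog3 5.71%, Chga 6.28%, goblet cells 10.4% and enterocytes 1.41%. The causes were not tested.

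Stricter markers and the limit of 30000 UMIs were chosen after seeing the data. Groups with under 20 cells gave no value: Neurog3 and goblet cells in hashtags 3 and 4 and in Y-linked cells, Chga cells in hashtags 3 and 4 and enterocytes in Y-linked cells. No paired analysis was possible because 1 library holds all cells and no result comes from a test. Leaving out a replicate does not apply to 1 library.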

Other observations

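YFP transcripts, which mark cells that had expressed the Cre driver or descend from such cells, gave a further view of the 43 genes. Of the 1568 remaining crypt cells 160 had at least 3 YFP UMIs and 1295 had none. The 43 genes summed to 39.0 per 10000 (38.5 to 39.6) in the first and 42.8 (42.5 to 43.01) in the second, at median depths of 25828 and 20127 UMIs. After thinning, 37.2% of the YFP cells were G2/M-high (58 of 156; 29.6 to 45.3%) and 38.1% of the cells without YFP (35.2 to 41.0%). Within hashtags 1 and 2 the shares were 37.1% and 35.9%.

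The Lgr5 bins differed in direction. At Lgr5 0 the share was 34.8% with YFP (24 of 69; 23.7 to 47.2%) and 45.7% without (41.2 to 50.3%), and at Lgr5 3+ it was 45.8% (22 of 48; 31.4 to 60.8%) and 29.7% (25.1 to 34.7%). The intervals overlapped in both bins, and the difference between bins was not tested. Hashtags 1 and 2 held 155 of the 160 YFP cells but 380 of the 1295 cells without YFP. The bins were not split by hashtag, so YFP and hashtag pair cannot be told apart in them. Over all cells, hashtags 1 and 2 against 3 and 4 gave 22.0% against 45.7% at Lgr5 0. At Lgr5 3+ they gave 39.2% against 31.7%. The minimum of 3 YFP UMIs admits deep cells more readily, and the part of depth in these shares beyond the thinning was not tested.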
